A study of Mus musculus with 79 samples.

Results

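EGCG (epigallocatechin gallate, a catechin of green tea) was given at 20 µM to mouse T cells during differentiation into non-pathogenic T helper 17 cells (Th17n, made with TGFb and IL6), and its effect in cells that had divided once was set against its effect in unsorted cells. Of the 79 libraries of the series, 19 belong to this experiment. They were 5 EGCG and 4 DMSO libraries of cells sorted after exactly 1 division (Div.1), and 5 EGCG and 5 DMSO libraries of unsorted cells (Total); DMSO was the solvent of EGCG. All these cells had been loaded before culture with CFSE, a dye that each division dilutes, and no genotype, strain or age is given. The series also holds pathogenic Th17 cells (Th17p, made with IL1b, IL6 and IL23), a second compound, DHEA at 50 µM, and its solvent methanol. The design text gives mice as the biological replicates, but not which mouse a library came from. Another library, from plate well A4, carried the label Th17n DMSO Div.1, and it was left out. Its plate row otherwise held Th17p Div.1 libraries, with DMSO or methanol. How many divisions the cells of a Total library had undergone is not given in the sources used here, so a response that depends on division and a change in the mix of divisions cannot be told apart in Total. In bulk RNA, fewer cells of a type and less RNA per cell cannot be told apart either.

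Th17 cells are helper T cells that secrete interleukin 17 cytokines, and they guard mucosal surfaces but also drive autoimmune tissue damage. TGFb with IL-6 gives cells that make IL-17 together with IL-10 and that cause little disease on transfer, and TGFb also opens the path to Foxp3-expressing regulatory T cells. T cell activation switches naive cells from a quiescent, lymph node homing state to growth, with glycolysis, sterol synthesis and cell cycle entry, and the effector genes are then acquired over successive divisions. A sort on division number fixes how often the cells have divided, which an unsorted sample does not.

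The values are TPM, which correct for gene length and for the size of the library, and changes are differences of log2(TPM + 1), which understate the change of low genes. The interaction is the EGCG effect in Div.1 (EGCG minus DMSO) minus the EGCG effect in Total. A positive value means that the EGCG effect was more positive, or less negative, in Div.1 than in Total, and the same number is the Div.1 minus Total difference with EGCG minus that with DMSO. Genes count as called where the p adjusted over all 10672 genes tested was under 0.05. The EGCG and DMSO groups compared here each lay in a different plate row, so plate row and group cannot be told apart among them. Th17n libraries with methanol or DHEA lay in the same rows.

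The 8 of 9 listed CD4 T cell markers found in the table were present in every group, and summed to 2140.1 to 2326 TPM in EGCG Div.1, 1605 to 1637 in DMSO Div.1, 2064 to 2283 in EGCG Total and 1590 to 1690.0 in DMSO Total. Markers of CD8 T and NK cells reached a sum of at most 29.2 TPM and those of B cells 2.66 in any library; myeloid markers summed to 189.7 to 244 TPM, nearly all from Cst3, which T cells also express, and the other 7 of 8 averaged under 1 TPM. EGCG Total replicate 1 stood apart from its group on the second principal component (39.7, against -6.07 to -1.40 for the other 4 EGCG Total libraries). It also held haemoglobin transcripts (Hba-a1 10.5 TPM, against at most 0.877 in those 4). Red cell transcripts were not limited to that library. The 6 erythroid cell markers summed to as much as 9.03 TPM in EGCG Div.1, against at most 0.972 in DMSO Div.1 and 1.37 in DMSO Total. The interaction without EGCG Total replicate 1 is given where it matters. Sequencing depth is unknown because TPM keep no read counts.

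**Figure D1:**
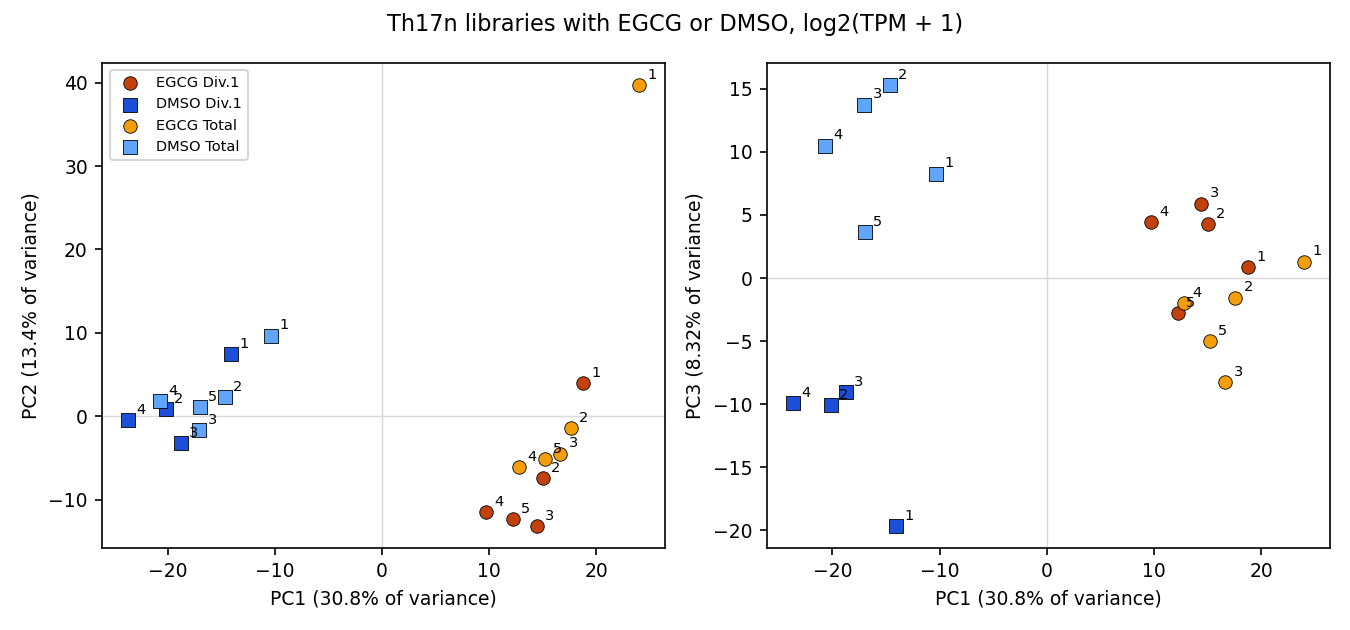
Scores of the 19 Th17n libraries on principal component 1 (30.8% of the variance, x axis of both panels) against component 2 (13.4%, left) and component 3 (8.32%, right), from log2(TPM + 1) of the 10672 genes. Orange and red circles are EGCG and blue squares DMSO libraries, numbered by replicate; component 1 separates EGCG from DMSO, and on component 3 the DMSO Div.1 libraries (-19.7 to -9.05) lie apart from DMSO Total (3.65 to 15.3) while the 2 EGCG groups lie together (-8.26 to 5.90).

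The comparison asked whether EGCG did the same in once-divided as in unsorted Th17n cells. It did not for 1420 of the 10672 genes (13.3%): 1150 (10.8%) had a positive interaction and 270 (2.53%) a negative one. Cytokine and chemokine genes of the Th17 program (Il17f, Il21, Ccl20), the lipid regulator Cd5l, sterol synthesis genes and chaperone genes were among the positive ones, and the homing receptor gene Ccr7, Foxp3 and interferon-inducible genes among the negative ones. Most interactions were small, with a median of 0.06 and an SD of 0.31 over all genes, and 26 positive and 11 negative called genes reached 2-fold. The excess of positive calls depended on the scaling: with each library's TPM rescaled by its median ratio to the geometric mean over libraries, 784 were positive (7.35%) and 715 negative (6.70%), with 1054 genes called both ways. The mean log2 level over genes, which such rescaling evens out, was 4.05 to 4.13 in EGCG Div.1, 3.94 to 4.01 in DMSO Div.1, 4.01 to 4.11 in EGCG Total and 3.99 to 4.02 in DMSO Total. Without DMSO Div.1 replicate 1, the library farthest out on component 3, 958 genes were called, and without EGCG Total replicate 1, 1434. With the library of well A4 put back in its labelled group 1121 genes were called, 965 of them shared, and of the genes named below Sec63, Hist1h4c, Entpd1, Gpr65, Casp1, Foxp3, Sesn2, Tnfrsf4, Ccr7, Hk2, Pgam1, Hmgcs1, Elovl5, Hspd1, Cd200, Lss, Cyp51, Sqle, Hsd17b7 and Cd274 were no longer called, while Il17a and Ahr were.

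EGCG changed many genes in each sort. In Div.1, 3722 genes (34.9%) differed from DMSO, 2999 higher (28.1%) and 723 lower (6.77%) with EGCG, or 1642 and 1671 after rescaling. In Total, 3760 genes (35.2%) differed, 2319 higher (21.7%) and 1441 lower (13.5%), or 1908 and 1912 after rescaling. Rescaling set the median EGCG effect over all genes in Div.1 at 0.00, where it was 0.11 as deposited. Across genes, the effects in Div.1 and in Total had a Pearson r of 0.61, a description over 10672 genes that are not independent. Of the 1420 interaction genes, 507 were called higher with EGCG in Div.1 and not called in Total, 362 were not called in Div.1 and called lower in Total, 134 were called higher in Div.1 and lower in Total, and 101 were called higher in both. On the negative side, 101 were called lower in Div.1 and not in Total, 101 were called higher in Total and not in Div.1, and 26 were lower in Div.1 and higher in Total. Of the rest, 55 were called in neither sort.

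**Figure D2:**
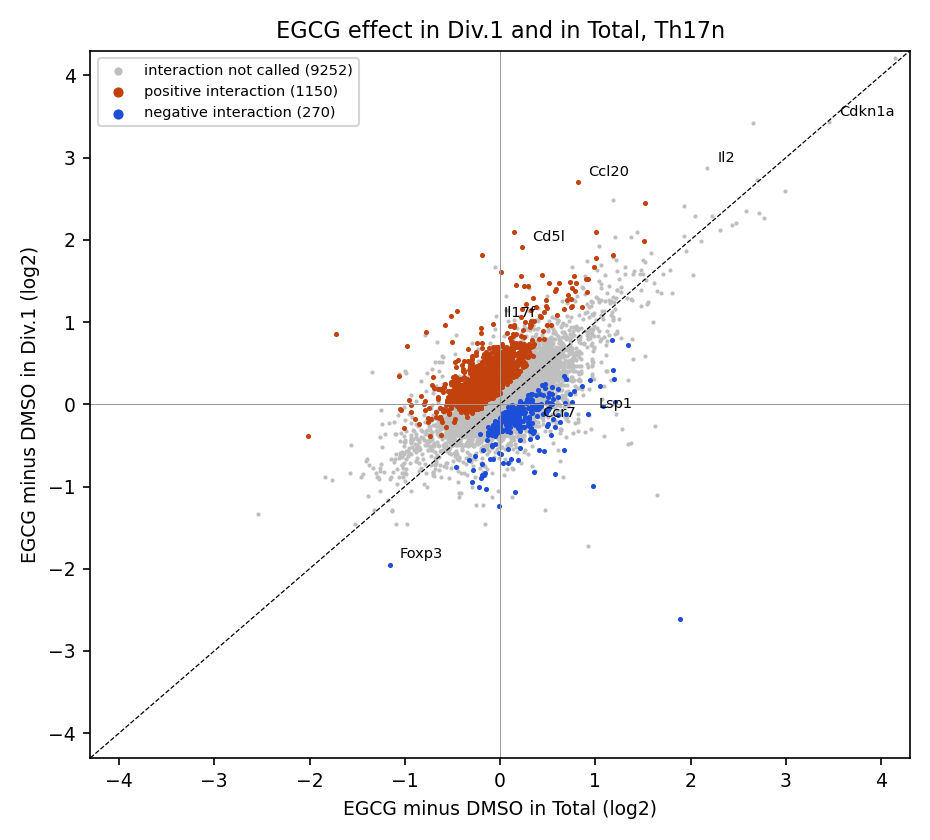
EGCG minus DMSO on the log2(TPM + 1) scale in Total (x axis) and in Div.1 (y axis), 1 dot per gene, with the 1150 positive interactions in orange, the 270 negative in blue and the genes not called in grey; the dashed line marks equal effects. Cdkn1a lies on the line near 3.4 in both sorts, Ccl20, Cd5l and Il17f lie above it, and Ccr7 and Lsp1 below it.

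Read the other way, fewer genes were called between Div.1 and Total with EGCG than with DMSO, by a margin that varied with the fit. With EGCG, 19 genes (0.178%) differed between Div.1 and Total, 12 higher (0.112%) and 7 lower (0.0656%) in Div.1, or 55 and 82 after rescaling. With DMSO, 1696 genes (15.9%) differed, 359 higher (3.36%) and 1337 lower (12.5%) in Div.1, or 694 and 850 after rescaling. Of the 1150 positive interactions, 882 were genes called lower in DMSO Div.1 than in DMSO Total, and of the 270 negative ones, 185 were called higher there; 13 interaction genes were called between the sorts with EGCG. In 1197 of the 1420 (84.3%) the sort difference was larger in size with DMSO than with EGCG. These comparisons are made of the same libraries as the interaction, so the counts describe its make-up and add no evidence. The count of 19 rested on single libraries: leaving out 1 of the 10 EGCG libraries at a time gave 5 (without Div.1 replicate 4) to 358 (without Div.1 replicate 1). The count with DMSO was 1129 without DMSO Div.1 replicate 1. With the well column as a replicate block 545 genes were called with EGCG and 2276 with DMSO in the fit on all groups, and 65 and 1417 in fits on the groups compared alone. Without well columns 1 and 10 the counts were 325 with EGCG and 1272 with DMSO. Across genes the sort difference with EGCG and that with DMSO had an r of -0.06. Among the 19 genes, the replicative helicase subunits Mcm7 and Mcm6 were slightly lower in Div.1 with EGCG (log2 difference -0.20 and -0.15), and the checkpoint ligand gene Cd274 was higher (0.61); Mcm6, Cd274 and Pim2 were picked after their values were seen. The kinase gene Pim2 was the 1 gene called in both sort comparisons, lower in Div.1 with EGCG (-0.39) and with DMSO (-0.42).

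**Figure D3:**
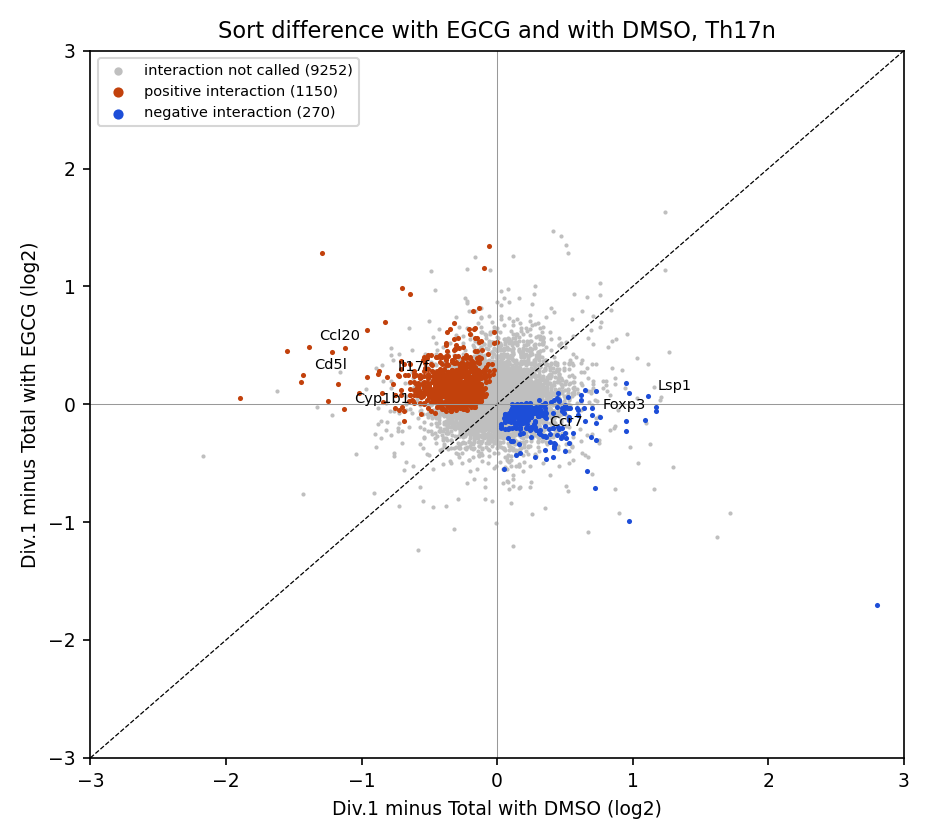
Div.1 minus Total on the log2(TPM + 1) scale with DMSO (x axis) and with EGCG (y axis), 1 dot per gene, coloured by the interaction as called; the dashed line marks equal differences. The coloured genes spread along the x axis and for the most part stay near 0 on the y axis, as Ccl20 does at -1.39 with DMSO and 0.49 with EGCG.

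The cytokine Il17f, a main secreted product of these cells (chromosome 1, 20777146 to 20790617, minus strand, mm10), was at 7868, 8147, 6985, 7016 and 7969 TPM in EGCG Div.1, against 3777, 4010.2, 4257 and 3426 in DMSO Div.1. In EGCG Total it was at 7125, 6414, 5681, 6566 and 6642 TPM, against 7461, 7063, 7237, 6096 and 6146 in DMSO Total. The 4 DMSO Div.1 libraries lay below all others, and the 2 Total groups overlapped. Il17f was higher with EGCG in Div.1 (0.98, adjusted p = 0.000131), did not pass the test in Total (-0.07, adjusted p = 0.825), and had an interaction of 1.04, SE 0.29, adjusted p = 0.00812. Its neighbour Il17a, the founding member of the family, had the same pattern of levels: 367 ± 44.3 TPM in EGCG Div.1 and 120.1 ± 43.2 in DMSO Div.1, 344 ± 61.4 in EGCG Total and 367 ± 121 in DMSO Total (SD, n = 5, 4, 5 and 5). Its interaction did not pass over all genes (1.72, SE 0.64, adjusted p = 0.0633), although the EGCG effect in Div.1 did (1.67, adjusted p = 0.00361).

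Ccl20, the ligand of the Th17 homing receptor CCR6 (chromosome 1, 83116766 to 83119167, plus strand), was at 309, 292, 432, 413 and 381 TPM in EGCG Div.1, against 52.1, 54.3, 100.1 and 31.3 in DMSO Div.1. In EGCG Total it was at 202, 270.5, 259.9, 316 and 248 TPM, against 129, 153, 158, 157 and 132 in DMSO Total. Every EGCG library lay above every DMSO library of its sort, and the DMSO Div.1 libraries were the lowest of all. The EGCG effect was 2.70 in Div.1 and 0.82, adjusted p = 0.0524 in Total, with an interaction of 1.88, SE 0.50, adjusted p = 0.00576; the call was lost with a pseudocount of 0.1. Il21, a cytokine through which Th17 cells sustain themselves, was at 80.9, 65.7, 67.8, 90.8 and 77.5 TPM in EGCG Div.1, against 31.3, 31.97, 34.7 and 36.8 in DMSO Div.1. In Total it was at 58.1 to 94.2 TPM with EGCG, against 50.3 to 63.8 with DMSO, which overlapped. Its interaction was 0.83, SE 0.19, adjusted p = 0.00177.

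Cd5l encodes a secreted protein that in Th17 cells is known to mark the non-pathogenic state and to regulate lipid synthesis (chromosome 3, 87357881 to 87371073, plus strand). It was at 34.9, 30.7, 35.5, 32.3 and 43.9 TPM in EGCG Div.1, against 7.12, 8.60, 14.6 and 6.09 in DMSO Div.1, ranges that did not overlap. In unsorted cells it was at 36.7, 34.6, 21.9, 28.1 and 28.1 TPM with EGCG, against 25.9, 30.2, 26.9, 25.1 and 17.9998 with DMSO. The effect was 1.91 in Div.1 and 0.23, adjusted p = 0.562 in Total, and the interaction 1.68, SE 0.41, adjusted p = 0.00296. Cyp1b1, a target of the aryl hydrocarbon receptor, was at 9.93 to 11.6 TPM in EGCG Div.1, against 1.42 to 1.95 in DMSO Div.1, and at 8.66 to 14.01 TPM in EGCG Total, against 3.56 to 7.95 in DMSO Total. It was higher with EGCG in both sorts, by 2.10 and 1.01, and by more in Div.1 (interaction 1.09, SE 0.31, adjusted p = 0.0113); the call was lost with a pseudocount of 0.1 and without well columns 1 and 10. The receptor gene Ahr itself had 0.44, adjusted p = 0.0534.

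Of the 16 core Th17 genes, 3 had a positive interaction (18.8%, against 10.8% of all genes) and none a negative one. The 3 were Il21, Ccl20 and Il17f. The median was 0.42, against 0.06 over all genes, and rescaling left the counts at 3 and 0 (7.35% and 6.70% of all genes). Of 8 non-pathogenic signature genes, Cd5l alone passed (12.5%, median 0.42), with Il10 at 0.50, adjusted p = 0.312, Il9 at 0.84, adjusted p = 0.332 and the factor Maf at 0.39, adjusted p = 0.123. Il9 was called lower with EGCG in Total (-0.96, adjusted p = 0.0357) and did not pass in Div.1 (-0.12, adjusted p = 0.848). Of 18 kept genes of the pathogenic signature, 2 passed, both positive, which at 11.1% is about the share over all genes: Gpr65, a proton-sensing receptor gene, and Casp1, the inflammasome protease gene. Casp1 (0.81) was not called without EGCG Total replicate 1 (0.54, adjusted p = 0.0863) or without DMSO Div.1 replicate 1, nor in a fit on these 4 groups alone or without well columns 1 and 10. Gpr65 was at 83.6 to 95.7 TPM in EGCG Div.1, against 25.4 to 42.9 in DMSO Div.1, and its interaction was 0.66, SE 0.15, adjusted p = 0.000993.

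**Figure D4:**
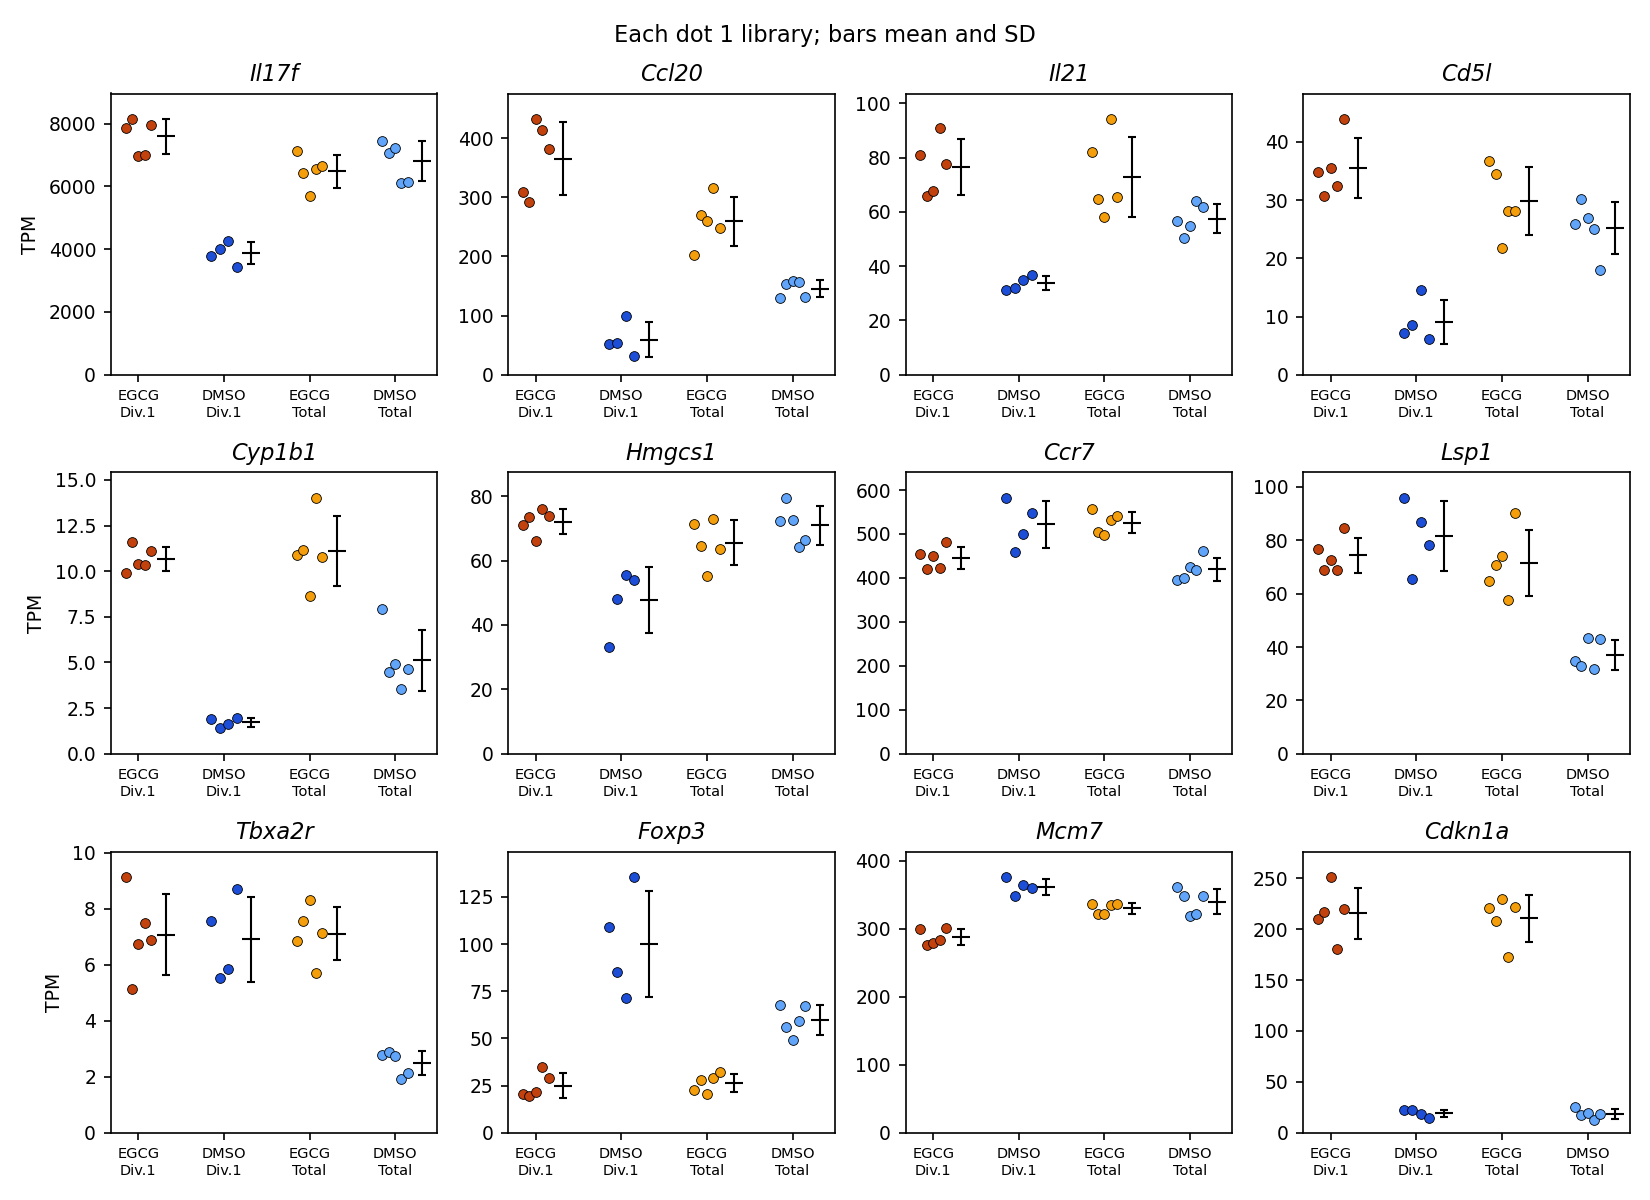
TPM of 12 genes in the 4 groups, 1 dot per library, with the mean and SD beside the dots (n = 5, 4, 5 and 5 from left to right); each axis starts at 0. In the first 5 panels, Il17f to Cyp1b1, the DMSO Div.1 libraries are the lowest, and in Hmgcs1 they are the lowest on average; in Foxp3 they are the highest; Ccr7 is lower in DMSO Total than in EGCG Total; Lsp1 and Tbxa2r are low in DMSO Total; and Cdkn1a differs between EGCG and DMSO alike in both sorts.

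Some genes of naive and homing T cells had a negative interaction. Ccr7, a chemokine receptor gene of lymph node entry (chromosome 11, 99144196 to 99155077, minus strand), was at 454, 420.4, 449, 422 and 481 TPM in EGCG Div.1, against 582, 459.5, 499.9 and 547 in DMSO Div.1, which overlapped. Among unsorted cells it stood at 556, 505, 497, 531 and 541 TPM with EGCG, against 394, 399.8, 424, 418 and 461 with DMSO, with no overlap. Its effect was -0.23, adjusted p = 0.0415 in Div.1 and 0.33, adjusted p = 0.00144 in Total, opposite in sign, and the interaction -0.55, SE 0.12, adjusted p = 0.000997. The 17 naive and quiescence genes held 4 negative calls (23.5%, against 2.53% of all genes) and 1 positive (5.88%, against 10.8%) with a median of -0.23, or 7 negative and 1 positive after rescaling (6.70% and 7.35% of all genes). Of 16 kept chemokine and homing receptor genes, a list that shares members with it, 3 were negative (18.8%) and none positive, with a median of 0.02. The positive one was Tob1, an antiproliferative gene (0.78, SE 0.20, adjusted p = 0.00508), at 2.81 to 6.17 TPM in EGCG Div.1 and 2.08 to 4.02 in DMSO Div.1.

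Lsp1, an actin-binding protein gene of leukocytes (chromosome 7, 142460809 to 142494867, plus strand), was low in 1 of the 4 groups. It was at 76.6, 68.7, 72.7, 69.03 and 84.6 TPM in EGCG Div.1, against 95.8, 65.4, 86.9 and 78.3 in DMSO Div.1. Unsorted cells had 64.7, 70.6, 74.1, 57.5 and 90.2 TPM with EGCG, against 34.9, 32.9, 43.4, 31.7 and 43.1 with DMSO. DMSO Total lay below the other 3 groups, which overlapped one another, and the interaction was -1.04, SE 0.16, adjusted p = 1.03e-05. The thromboxane receptor gene Tbxa2r had the same arrangement, at 5.13 to 9.12, 5.51 to 8.71, 5.72 to 8.30 and 1.93 to 2.89 TPM in EGCG Div.1, DMSO Div.1, EGCG Total and DMSO Total (interaction -1.18, SE 0.22, adjusted p = 8.65e-05).

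Foxp3, the lineage factor of regulatory T cells (7573644 to 7595245 on the plus strand of chromosome X), was at 20.6, 19.4, 21.7, 34.7 and 28.8 TPM in EGCG Div.1, against 109, 85.2, 71.5 and 136 in DMSO Div.1. In Total it was at 22.7, 27.7, 20.5, 29.2 and 32.2 TPM with EGCG, against 67.9, 56.1, 49.2, 59.002 and 67.3 with DMSO. EGCG lowered it in both sorts without overlap, by -1.95 in Div.1 and -1.16 in Total, and the interaction was -0.79, SE 0.24, adjusted p = 0.0152. That call rested on DMSO Div.1 replicate 4, the highest library: without it the interaction was -0.64 (adjusted p = 0.0675). It was also lost with a pseudocount of 0.1, without well columns 1 and 10 and in a fit on these 4 groups alone, and with the library of well A4 put back in its labelled group the value was 0.43 (adjusted p = 0.732). Ctla4, an inhibitory receptor gene that regulatory and activated T cells share, moved the opposite way. It was at 239.8 to 275 TPM in EGCG Div.1, against 67.8 to 86.8 in DMSO Div.1, and at 214 to 271 TPM in EGCG Total, against 117 to 134 in DMSO Total (interaction 0.68, SE 0.16, adjusted p = 0.00247). Of 11 kept regulatory T cell genes only these 2 were called (9.09% each way, against 10.8% positive and 2.53% negative of all genes).

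Sterol synthesis was the metabolic list with the most called members. T cells make cholesterol through the mevalonate pathway when they grow, and the factor SREBP2 turns its genes on when sterols are low. Of 22 kept genes 9 had a positive interaction and none a negative one (40.9%, against 10.8% of all genes), with a median of 0.24. After rescaling 6 were positive and none negative (7.35% and 6.70% of all genes). With EGCG, 11 of the 22 were called higher in Div.1 (28.1% of all genes) and none lower (6.77%). In Total 4 were called higher (21.7%) and 3 lower (13.5%). Between the sorts with DMSO, 14 of the 22 were lower in Div.1, against 12.5% of all genes. Among the 9 were Insig1, Hmgcs1, Idi1, Sc5d, Lss, Cyp51, Sqle and Hsd17b7. The calls of Cyp51 (0.29), Sqle (0.25) and Hsd17b7 (0.49) were lost after rescaling and on leaving out any of 5, 13 and 10 libraries in turn, furthest without DMSO Div.1 replicate 1 (0.24), EGCG Total replicate 3 (0.21) and DMSO Div.1 replicate 1 (0.42). Those of Sc5d (0.36) and Lss (0.39) were lost without well columns 1 and 10, and that of Lss also without DMSO Div.1 replicate 4 (0.35, adjusted p = 0.053). Idi1 (0.72) was called in every alternative run.

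Promoter letters are shown for Hmgcs1, Insig1 and Hsd17b7, called members of the list. They are the 250 bases before the transcription start in RefSeq on GRCm38.p6, 5′ to 3′ on the gene's strand; capitals mark CCAAT, which here occurs on the opposite strand and reads ATTGG, and in Hmgcs1 also a match to TCACNCCAC, a form of the sterol regulatory element. The windows are chr13:119690101-119690350 (plus strand) for Hmgcs1, chr5:28071162-28071411 (plus strand) for Insig1 and chr1:169969206-169969455 (minus strand) for Hsd17b7.
Hmgcs1: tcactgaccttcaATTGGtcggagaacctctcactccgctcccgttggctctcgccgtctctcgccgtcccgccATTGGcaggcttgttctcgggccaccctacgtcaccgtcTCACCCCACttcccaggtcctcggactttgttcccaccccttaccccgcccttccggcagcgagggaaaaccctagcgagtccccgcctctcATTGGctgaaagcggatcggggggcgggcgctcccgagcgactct
Insig1: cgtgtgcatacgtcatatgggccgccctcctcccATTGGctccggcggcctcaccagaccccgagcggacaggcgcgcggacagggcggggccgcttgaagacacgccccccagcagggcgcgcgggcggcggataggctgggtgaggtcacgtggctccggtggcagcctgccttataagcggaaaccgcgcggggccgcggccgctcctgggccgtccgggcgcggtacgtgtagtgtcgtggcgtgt
Hsd17b7: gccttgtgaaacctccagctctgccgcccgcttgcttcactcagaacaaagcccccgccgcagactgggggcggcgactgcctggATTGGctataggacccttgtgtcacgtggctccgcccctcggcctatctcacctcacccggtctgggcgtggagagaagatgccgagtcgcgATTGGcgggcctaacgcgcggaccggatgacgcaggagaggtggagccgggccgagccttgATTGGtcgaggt
CCAAT, on either strand, was in the promoter window of all 16 of the 24 listed genes that had an entry. The 7 called genes with an entry were among them. Counted by gene in the same way, 37.5% of all 27025 genes had it, and counted by promoter 33.8% of all 32851. TCACNCCAC was in Hmgcs1 alone of the 16, in 1.22% of all genes and in 1.05% of all promoters. The list was chosen for its pathway and the letters are a description of the windows, not a site or a cause.

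Hmgcs1, the synthase that makes HMG-CoA (chromosome 13, 119690379 to 119708260, plus strand), was at 71.2, 73.6, 65.9, 75.98 and 73.8 TPM in EGCG Div.1, against 33.1, 48.03, 55.6 and 54.04 in DMSO Div.1. In unsorted cells it was at 71.4, 64.7, 55.2, 72.9 and 63.6 TPM with EGCG, against 72.2, 79.4, 72.6, 64.1 and 66.2 with DMSO. The 4 DMSO Div.1 libraries were low and the lowest was replicate 1; the Total groups overlapped, and the interaction was 0.73, SE 0.16, adjusted p = 0.000723. Insig1, which retains the SREBP complex in the endoplasmic reticulum when sterols are plentiful, was at 84.7 to 99.5 TPM in EGCG Div.1, against 69.6 to 81.1 in DMSO Div.1, and at 79.97 to 101 TPM in EGCG Total, against 89.98 to 104 in DMSO Total. EGCG raised Insig1 in Div.1 by 0.28 and lowered it in Total (-0.19), with an interaction of 0.47, SE 0.10, adjusted p = 0.000455. Of 13 kept fatty acid synthesis genes 2 were positive (15.4%, against 10.8% of all genes), with a median of 0.21. They were Cd5l, which the list also holds, and the elongase gene Elovl5. The Elovl5 call was lost after rescaling and without any 1 of 3 libraries, furthest without EGCG Total replicate 3 (0.19).

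Chaperone genes had the highest positive share of the lists plotted. Of 11 kept heat shock genes 5 had a positive interaction (45.5%, against 10.8% of all genes) and none a negative one (2.53%). After rescaling 4 were positive and none negative (7.35% and 6.70% of all genes). The median over the list was 0.06, the same as over all genes. Hspa4l, a large Hsp70-type chaperone gene, was at 25.2, 26.3, 29.6, 25.2 and 22.2 TPM in EGCG Div.1, against 15.3, 15.9, 16.3 and 16.3 in DMSO Div.1, and at 17.1 to 24.3 TPM in EGCG Total, against 19.3 to 21.9 in DMSO Total (interaction 0.61, SE 0.12, adjusted p = 0.000278). Hsph1, a nucleotide exchange factor of Hsp70, was lower with EGCG in Total (-0.30, adjusted p = 2.11e-05) and did not pass in Div.1 (0.11, adjusted p = 0.151). It was at 144 to 162 TPM in EGCG Total, against 176 to 191 in DMSO Total, and its interaction was 0.41, SE 0.08, adjusted p = 0.000316. The mitochondrial chaperonin gene Hspd1 had an interaction of 0.30, SE 0.06, adjusted p = 0.000521, with effects of 0.12 in Div.1 and -0.18 in Total.

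**Figure D5:**
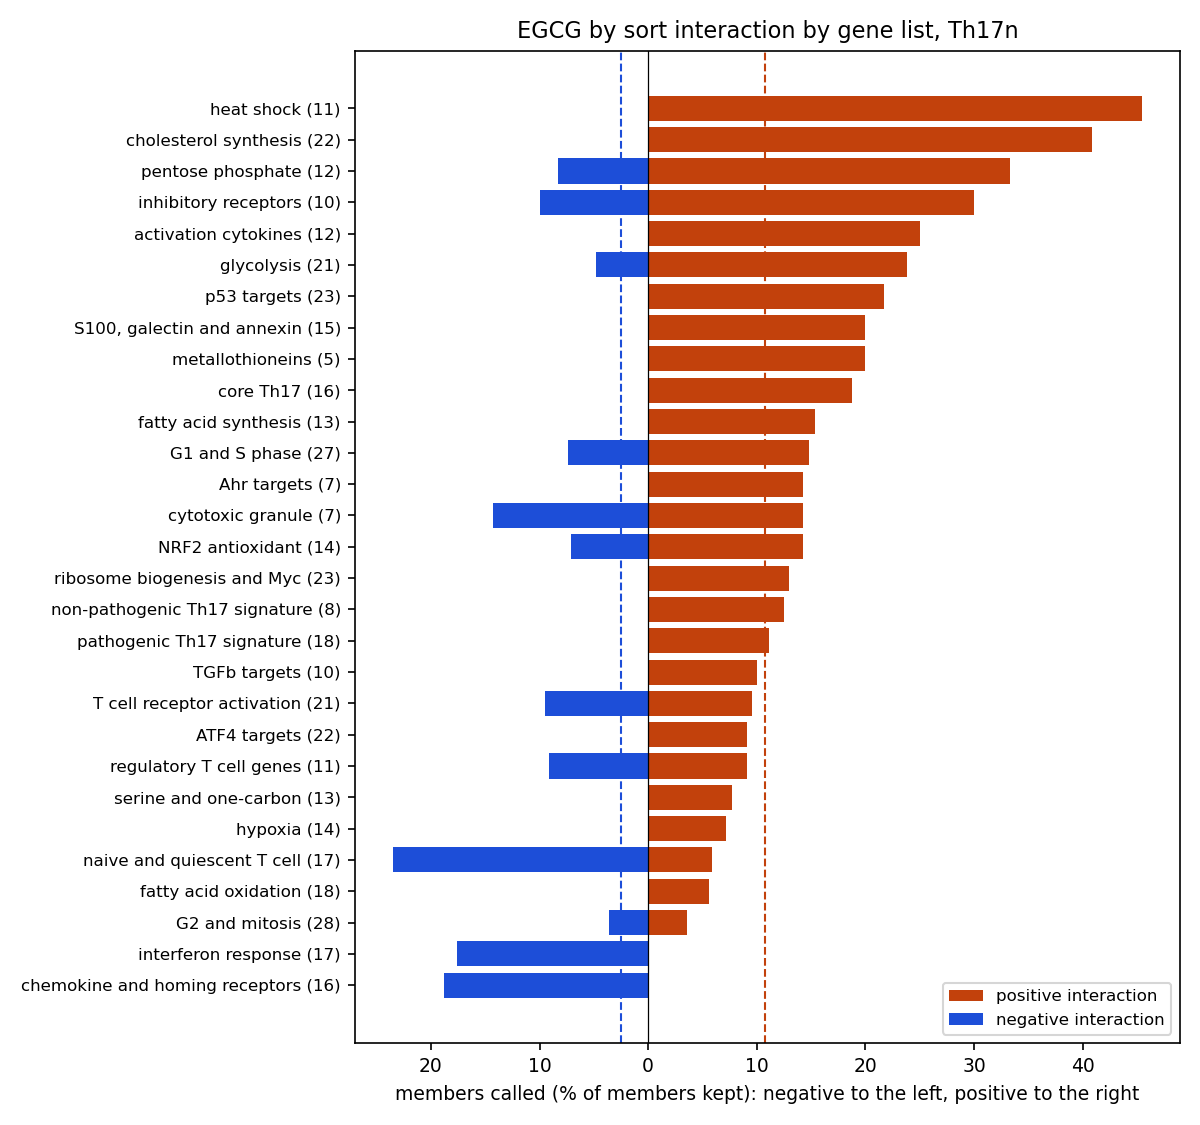
Share of the kept members of each gene list (number kept in parentheses) with a called positive interaction (right, orange) or negative interaction (left, blue); dashed lines mark the shares over all 10672 genes, 10.8% and 2.53%. Heat shock and cholesterol synthesis have the largest positive shares, and naive and quiescent T cell genes the largest negative one; small lists move in large steps.

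Sugar metabolism gave mixed and scale-dependent results. Of 21 kept glycolysis genes 5 had a positive (23.8%, against 10.8% of all genes) and 1 a negative interaction (4.76%, against 2.53%) with a median of 0.10, but 3 and 4 after rescaling (7.35% and 6.70% of all genes), so no direction of the list held under both scalings. The lactate and pyruvate carrier gene Slc16a1 was at 24.6, 39.99, 45.6, 44.5 and 44.7 TPM in EGCG Div.1, against 35.1, 43.3, 44.2 and 41.9 in DMSO Div.1. Total libraries were at 23.8, 29.6, 30.3, 41.01 and 34.6 TPM with EGCG, against 52.03, 54.7, 55.9, 57.8 and 55.1 with DMSO, which did not overlap. EGCG lowered it in Total by -0.79 and it did not pass in Div.1 (-0.07, adjusted p = 0.655; interaction 0.72, SE 0.15, adjusted p = 0.000319). Hk2, the inducible hexokinase gene, was at 31.3 to 33.7 TPM in EGCG Div.1, against 20.5 to 28.2 in DMSO Div.1, and at 25.9 to 37.1 TPM in EGCG Total, against 28.3 to 38.7 in DMSO Total (interaction 0.47, SE 0.13, adjusted p = 0.00664). Its call was lost in a fit on these 4 groups alone (adjusted p = 0.0505) and with a replicate block on them (adjusted p = 0.065). The mutase gene Pgam1 had an interaction of 0.23, SE 0.06, adjusted p = 0.00925. Of 12 pentose phosphate genes 4 were positive (33.3%) and 1 negative (8.33%), or 2 and 4 after rescaling. Rpe, the epimerase of that pathway, was at 67.6, 71.2, 73.2, 74.5 and 67.7 TPM in EGCG Div.1, against 47.6, 51.5, 54.9 and 59.2 in DMSO Div.1, and had an interaction of 0.52, SE 0.09, adjusted p = 2.85e-05. G6pdx, the first enzyme of the pathway, was at 46.96 to 56.3 TPM in EGCG Div.1, against 48.3 to 54.1 in DMSO Div.1, and did not pass (0.09, SE 0.09, adjusted p = 0.554).

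Most genes of the p53 list were higher with EGCG in both sorts. Of 23 p53 targets 21 were called higher with EGCG in Div.1 (28.1% of all genes) and 20 in Total (21.7% of all genes), none lower in either, with median effects of 0.89 and 0.69. Cdkn1a, the cell cycle inhibitor p21 (chromosome 17, 29090976 to 29100727, plus strand), was at 209.7, 217, 251, 180.4 and 219 TPM in EGCG Div.1, against 21.9, 22.3, 18.2 and 14.6 in DMSO Div.1. Among unsorted cells it stood at 221, 208, 229.8, 172 and 222 TPM with EGCG, against 25.5, 17.3, 19.8, 12.2 and 18.8 with DMSO. The effect was 3.43, SE 0.18, adjusted p = 6.69e-25 in Div.1 and 3.45, SE 0.17, adjusted p = 1.66e-26 in Total, and the interaction -0.02, SE 0.24, adjusted p = 0.971. Of the 23, 5 had a positive interaction (21.7%, against 10.8% of all genes) and none a negative one. After rescaling the counts were 5 and 1 (7.35% and 6.70% of all genes). Sesn2, a stress sensor that restrains growth signalling, was at 24.3, 21.04, 26.5, 24.8 and 24.4 TPM in EGCG Div.1, against 6.17, 5.90, 7.37 and 5.41 in DMSO Div.1. Unsorted cells had 21.6 to 25.8 TPM with EGCG, against 8.92 to 10.1 with DMSO, again without overlap (interaction 0.62, SE 0.17, adjusted p = 0.00783). Perp, a p53-induced membrane protein gene, had an interaction of 0.66, SE 0.19, adjusted p = 0.0114, with effects of 1.12 in Div.1 and 0.46 in Total.

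Cell cycle genes were called in both directions. Of 28 G2 and mitosis genes 1 had a positive and 1 a negative interaction (3.57% each, against 10.8% and 2.53% of all genes; median 0.00). In this list 13 were lower with EGCG in Div.1 and 16 in Total, where 6.77% and 13.5% of all genes were. Mki67, the proliferation marker, was at 38.5 to 44.03 TPM in EGCG Div.1, against 46.5 to 53.5 in DMSO Div.1, and at 36.3 to 41.4 TPM in EGCG Total, against 44.5 to 48.2 in DMSO Total, called lower in both sorts, with an interaction of 0.03, SE 0.09, adjusted p = 0.851. Of 27 G1 and S phase genes 4 were positive (14.8%) and 2 negative (7.41%). After rescaling 1 was positive and 6 negative (7.35% and 6.70% of all genes). The 2 negative ones before rescaling belong to the replicative helicase or its loading. Mcm7, a helicase subunit, was at 299.7, 276, 279.7, 284 and 302 TPM in EGCG Div.1, against 376, 348, 364 and 359.7 in DMSO Div.1. In Total it was at 336, 321, 321, 335 and 337 TPM with EGCG, against 362, 348, 319, 323 and 348 with DMSO, which overlapped. The EGCG Div.1 libraries lay below all others, and the interaction was -0.29, SE 0.05, adjusted p = 6.74e-05. Cdt1, the licensing factor that brings the helicase to origins, had -0.33, SE 0.08, adjusted p = 0.00183, and was lower with EGCG in Div.1 (-0.24) with 0.09, adjusted p = 0.192 in Total. Slbp, which binds histone mRNA in S phase, had an interaction of 0.34, SE 0.08, adjusted p = 0.00226, not called without well columns 1 and 10. The cyclin gene Ccnd2 was raised by EGCG alike in both sorts, by 0.63 and 0.57 (interaction 0.06, adjusted p = 0.785), and Myc, the growth factor-induced transcription factor gene, had -0.26, adjusted p = 0.0632, called after rescaling.

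Of 21 kept T cell receptor activation genes 14 were called higher with EGCG in Div.1 and 1 lower (28.1% and 6.77% of all genes). In Total 15 were higher and 1 lower (21.7% and 13.5% of all genes). Il2, the T cell growth factor gene, was at 1061, 882, 1346, 776 and 944 TPM in EGCG Div.1, against 107, 112, 292 and 91.1 in DMSO Div.1. In unsorted cells it was at 629, 592, 896, 668 and 836 TPM with EGCG, against 147, 153, 240.2, 157 and 117 with DMSO. It rose in both sorts, by 2.87 and 2.17, and the difference between them did not pass (0.70, SE 0.30, adjusted p = 0.108). Among the 21 activation genes 2 had a positive and 2 a negative interaction (9.52% each, against 10.8% and 2.53% of all genes), or 1 and 3 after rescaling. The positive share was near that over all genes. Tnfrsf4, the costimulatory receptor OX40, was at 572 to 661 TPM in EGCG Div.1, against 211 to 335 in DMSO Div.1, and at 447 to 608 TPM in EGCG Total, against 286 to 370.2 in DMSO Total (interaction 0.45, SE 0.12, adjusted p = 0.00799); the call was lost in a fit on these 4 groups alone and without DMSO Div.1 replicate 1 (0.34, adjusted p = 0.0668). Nr4a1, an immediate early gene of receptor signalling, was the reverse, with effects of 0.02 in Div.1 and 0.68 in Total and an interaction of -0.66, SE 0.22, adjusted p = 0.0304, not called without any 1 of 6 libraries, furthest without DMSO Div.1 replicate 2 (-0.58, adjusted p = 0.0801). Of 10 kept inhibitory receptor genes 3 were positive and 1 negative under both scalings. Over all genes 10.8% were positive and 2.53% negative, or 7.35% and 6.70% after rescaling. Cd200, a ligand that quiets myeloid cells, was at 104 to 138 TPM in EGCG Div.1, against 31.8 to 60.5 in DMSO Div.1 (interaction 0.76, SE 0.19, adjusted p = 0.00446).

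Of 15 kept S100, galectin and annexin genes 3 had a positive interaction (20.0%, against 10.8% of all genes). None had a negative one (2.53% of all genes), and the median was 0.07. After rescaling the counts were 3 and 1 (7.35% and 6.70% of all genes). With EGCG 10 were called higher in Div.1 and 12 in Total (28.1% and 21.7% of all genes). None was called lower (6.77% and 13.5% of all genes). Anxa2, a membrane-binding annexin gene, was at 171, 185, 181, 155 and 142 TPM in EGCG Div.1, against 54.1, 54.9, 75.96 and 53.4 in DMSO Div.1. Total libraries were at 161, 160.1, 175, 169 and 154 TPM with EGCG, against 96.4, 107, 129, 101 and 99.1 with DMSO. No EGCG library overlapped the DMSO libraries of its sort, and the interaction was 0.86, SE 0.19, adjusted p = 0.000803. Of 7 kept cytotoxic granule genes 1 was positive and 1 negative (14.3% each, against 10.8% and 2.53% of all genes). The positive one was Srgn, the granule proteoglycan gene. It was at 738 to 982 TPM in EGCG Div.1, against 351 to 497 in DMSO Div.1. In Total it was at 714 to 850.2 TPM with EGCG, against 538 to 671 with DMSO (interaction 0.65, SE 0.12, adjusted p = 7.44e-05). Lgals1, a galectin gene, had 0.48, SE 0.12, adjusted p = 0.00368. Skil, a feedback inhibitor of TGFb signalling, was the 1 called gene of 10 kept TGFb targets. The positive share of that list was near the 10.8% over all genes. Skil was at 35.1 to 42.3 TPM in EGCG Div.1, against 28.04 to 33.9 in DMSO Div.1. In Total it was at 27.7 to 36.3 TPM with EGCG, against 34.4 to 42.03 with DMSO. Its effect was 0.34 in Div.1 and -0.25 in Total, both called (interaction 0.59, SE 0.13, adjusted p = 0.000706).

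Interferon-inducible genes with a call were on the negative side. Of 17 kept genes 3 had a negative interaction (17.6%, against 2.53% of all genes) and none a positive one, or 5 and none after rescaling (6.70% of all genes negative), with a median of -0.02. Gbp2, a guanylate-binding protein gene of cell defence, was at 58.1, 57.3, 55.1, 63.4 and 65.02 TPM in EGCG Div.1, against 53.9, 33.7, 45.9 and 63.7 in DMSO Div.1. Among unsorted cells it stood at 76.6, 65.4, 56.7, 59.1 and 79.9 TPM with EGCG, against 37.9, 24.5, 22.7, 29.1 and 30.4 with DMSO. EGCG raised it in Total without overlap (1.20) and it did not pass in Div.1 (0.31, adjusted p = 0.155; interaction -0.90, SE 0.23, adjusted p = 0.00486). Ifi27l2a rose in both sorts and by less in Div.1, by 0.42 against 1.19 in Total (interaction -0.77, SE 0.21, adjusted p = 0.00719).

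The largest interactions by size were partly in genes with unstable estimates. Gapvd1, a regulator of endocytosis, was at 7.87, 7.56, 5.37, 5.92 and 8.35 TPM in EGCG Div.1, against 3.47, 1.19, 0.350 and 0.967 in DMSO Div.1, without overlap, and at 2.999 to 8.17 TPM in EGCG Total, against 3.80 to 7.72 in DMSO Total (interaction 2.0, SE 0.52, adjusted p = 0.00486). Pja1, a ubiquitin ligase gene, had an interaction of 2.57, SE 0.75, adjusted p = 0.0141, with EGCG Total libraries at 0.328, 9.87, 14.9, 1.22 and 16.1 TPM, and was not called without EGCG Total replicate 1 (2.02, adjusted p = 0.0521), in a fit on these 4 groups alone or without well columns 1 and 10. Fpgt had an interaction of 1.95, SE 0.58, adjusted p = 0.0151, with DMSO Div.1 libraries at 2.88, 0.339, 0.729 and 0.000100 TPM, and was not called without DMSO Div.1 replicate 4 (1.68, adjusted p = 0.0505). The calls of Sec63 (1.58), Clspn (1.53) and the histone gene Hist1h4c (-1.23) were lost on leaving out any of 8, 5 and 9 libraries in turn, furthest without DMSO Div.1 replicate 2 (0.94), EGCG Total replicate 3 (1.32) and EGCG Div.1 replicate 2 (-1.11), and were also lost in 6, 2 and 3 of the 9 other alternatives. The pseudogene Apoo-ps had the largest value, -4.50, on libraries listed at 0.000200, 0, 0, 0 and 9.80 TPM in EGCG Div.1 and 18.2, 3.94, 9.90 and 8.07 in DMSO Div.1, 0, 2.92, 11.4, 13.8 and 4.46 in EGCG Total and 4.72, 0, 0, 0 and 0 in DMSO Total. Reads of a pseudogene, of histone genes and of Ly6 family genes can be assigned to near-identical copies, so Apoo-ps, Hist1h4c and Ly6c1 (interaction -1.22) are uncertain. Klrc1, an NK cell receptor gene of the CD8 T and NK cell marker list, was called (1.63), but not in a fit on these 4 groups alone or without well columns 1 and 10. It was at 1.52, 1.02, 0, 0 and 0.945 TPM in EGCG Div.1, 0.889, 1.69, 0.112 and 2.27 in DMSO Div.1, 0.684, 0, 0, 2.06 and 0 in EGCG Total and 6.98, 3.19, 5.11, 4.62 and 3.996 in DMSO Total; the summed list was at 13.6 to 21.4, 14.9 to 27.5, 12.7 to 21.5 and 17.1 to 29.2 TPM in these groups, and its part in the results above was not tested.

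The same interaction was computed in pathogenic Th17p cells, from 5 EGCG and 4 DMSO Div.1 and 5 EGCG and 5 DMSO Total libraries. There 274 genes (2.57%) were called, 144 positive (1.35%) and 130 negative (1.22%), or 127 and 246 after rescaling. Of these, 104 were also called in Th17n, which is 7.32% of the Th17n and 38% of the Th17p calls, all with the same sign. The difference of the 2 interactions, Th17n minus Th17p, was called for 9 genes (0.0843%), 6 of them positive (0.0562%) and 3 negative (0.0281%), with 1070 under an unadjusted p of 0.05. Leaving out 1 of the 38 libraries at a time gave 3 (without Th17n DMSO Div.1 replicate 1 or Th17n EGCG Div.1 replicate 3) to 14 (without Th17n EGCG Total replicate 1), and 5 without Th17p DMSO Div.1 replicate 1 or Th17p EGCG Total replicate 3. The ectonucleotidase gene Entpd1 (CD39), which turns extracellular ATP toward adenosine, was among the 9 and had already been named for its Th17n interaction. It was at 3.81, 3.88, 3.08, 4.15 and 3.78 TPM in EGCG Div.1, against 5.89, 6.05, 6.15 and 6.02 in DMSO Div.1. In Total it was at 7.997, 4.34, 2.95, 4.52 and 5.32 TPM with EGCG, against 2.16, 5.29, 3.27, 2.82 and 3.14 with DMSO, which overlapped. Its interaction was -1.03 in Th17n and 0.44 in Th17p, a difference of -1.47, SE 0.30, adjusted p = 0.022; the call within Th17n was lost with a pseudocount of 0.1. The other 8 were Ptprc (difference 0.55), which encodes the phosphatase CD45, Rgs1 (0.72), an inhibitor of chemokine receptor signalling, Spcs3 (0.53), Ndufb6 (0.41), Mex3a (1.0), Afg3l1 (-1.15), Hist1h2ai (2.60) and Zbtb7c (-1.09), the last at no more than 0.022 TPM on average in any Th17n group here. These 8 were named because the count is small, after their values were seen. Within Th17n the interaction was not called for Mex3a (0.36, adjusted p = 0.108), Hist1h2ai (-0.53, adjusted p = 0.392) or Zbtb7c (-0.03, adjusted p = 0.903). In Th17p it was -0.64, -3.12 and 1.06 for these genes, called for each. Hist1h2ai is a histone gene and shares the uncertainty of read assignment given above for Hist1h4c.

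Most genes described above were not shown to differ between the cell types. Il17f had an interaction of 1.04 in Th17n and 0.68, adjusted p = 0.213 in Th17p, and the difference did not pass (0.36, adjusted p = 0.837). For Ccl20 the values were 1.88 and 0.78 (difference 1.10, adjusted p = 0.633), and for Cd5l 1.68 and 0.26 (difference 1.42, adjusted p = 0.367). In Th17p both genes lay near the floor of the log2(TPM + 1) scale, where group means with EGCG or DMSO were 1.31 to 2.43 TPM for Ccl20 and 1.42 to 4.38 TPM for Cd5l. Called in both types with the same sign were Lsp1 (-1.04 in Th17n and -0.74 in Th17p), Tbxa2r (-1.18 and -1.09), Ccr7 (-0.55 and -0.73), Anxa2 (0.86 and 0.63) and Lgals1 (0.48 and 0.47).

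The sort difference was also looked at in Th17n cells with methanol, in 5 Div.1 and 5 Total libraries. These libraries do not enter the interaction value, but the fit on all groups takes its spread from them too. This comparison was added after the other values had been seen. With methanol 319 genes (2.99%) differed between Div.1 and Total, 80 higher (0.750%) and 239 lower (2.24%) in Div.1, or 127 and 230 after rescaling. Of them 253 were also called with DMSO, 79.3% of the methanol and 14.9% of the DMSO calls, all in the same direction. Across genes the 2 sort differences had an r of 0.51. The Div.1 libraries of both solvents shared a plate row, and so did their Total libraries. Sort and plate row therefore cannot be told apart in either solvent, nor in what the solvents share. Leaving out 1 methanol library at a time gave 35 (without Div.1 replicate 6) to 763 (without Div.1 replicate 10) genes, and 7 of the 10 fits moved the count by more than 1.5 times. The difference between the solvents, DMSO minus methanol, was called by limma for no gene (0%), with 623 (5.84%) under an unadjusted p of 0.05, and for 1 gene with a pseudocount of 0.1. Cd5l was lower in Div.1 than in Total with methanol, at 25.2 ± 5.14 TPM in Div.1, against 53.6 ± 9.91 in Total (SD, n = 5 each; -1.07, adjusted p = 0.0249; with DMSO -1.43). Lsp1 was higher, at 66.2 ± 13.4 TPM in Div.1, against 38.1 ± 5.84 in Total (0.77, adjusted p = 2.68e-05; with DMSO 1.11). Cyp1b1 was lower (-0.94, adjusted p = 0.00782; with DMSO -1.13), while Il17f (-0.48, adjusted p = 0.176) and Ccl20 (-0.97, adjusted p = 0.0978) had the same sign as with DMSO and did not pass.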

How the data were processed

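RNA was captured by its polyA tail, per the labels' protocols. Per the submitters' processing notes, Trimmomatic and kallisto were the tools used, with the mm10 build; their versions are not stated. The authors deposited 1 table of TPM for 20465 gene symbols and 79 libraries, whose columns summed to 880077 to 895017. Read depth is unknown, so precision rests on the spread between replicates.

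The 10672 genes that reached 1 TPM in 4 or more libraries were tested as log2(TPM + 1) with limma 3.58.1 (R 4.3.3), with 16 group means, 78 libraries, a trend on mean expression, a two-sided moderated test and Benjamini-Hochberg adjustment within each of 9 comparisons. Fits were tested on simulated data. Replicate numbers are well columns that the labels do not tie to mice, and the main fit did not use them as pairs. Deviations of the 27 same-numbered pairs had an r of 0.02 to 0.27, with 11 above 0.1. Of 19 libraries 18 correlated best with their own number, and fits with the well column as a block are among the alternatives. Libraries within a group had an r of 0.976 to 0.993, with no duplicates.

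The members and gene lists were chosen with earlier results of these data known. Named genes were the 8 largest positive and 8 largest negative called interactions averaging 5 TPM or more in a group, up to 3 called members per list, and a fixed set of 15; those described are a part of these, with others picked after their values were seen, and some genes are not reported here. Positions are GENCODE M21 (mm10). Python 3.11.15, pandas 2.3.3, numpy 2.4.6 and matplotlib 3.10.9 were used.

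Alternatives were a pseudocount of 0.1, no filter, rescaled TPM, the 4 groups alone, a replicate block, the library of well A4 put back, well columns 1 and 10 left out, no trend, and each library left out in turn.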

Additional observations from a re-analysis of the deposited data

Results flagged for a closer look

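The EGCG effect differed between Div.1 and Total by the test of the interaction for 59 of the genes named in the results. The interaction on the log2(TPM + 1) scale was positive for Pja1 2.57, Gapvd1 2.0, Fpgt 1.95, Ccl20 1.88, Cd5l 1.68, Klrc1 1.63, Sec63 1.58, Clspn 1.53, Cyp1b1 1.09 and Il17f 1.04. Smaller positive values were those of Anxa2 0.86, Il21 0.83, Casp1 0.81, Tob1 0.78, Cd200 0.76, Hmgcs1 0.73, Slc16a1 0.72, Idi1 0.72, Ctla4 0.68, Perp 0.66, Gpr65 0.66, Srgn 0.65, Cd274 0.64, Sesn2 0.62, Hspa4l 0.61, Skil 0.59, Spcs3 0.58, Rgs1 0.57, Rpe 0.52 and Ptprc 0.52. Below these came Hsd17b7 0.49, Lgals1 0.48, Hk2 0.47, Insig1 0.47, Tnfrsf4 0.45, Hsph1 0.41, Lss 0.39, Sc5d 0.36, Slbp 0.34, Ndufb6 0.33, Hspd1 0.3, Cyp51 0.29, Sqle 0.25, Elovl5 0.24 and Pgam1 0.23. The interaction was negative for Apoo-ps -4.5, Hist1h4c -1.23, Ly6c1 -1.22, Tbxa2r -1.18, Lsp1 -1.04, Entpd1 -1.03, Gbp2 -0.9, Foxp3 -0.79, Ifi27l2a -0.77, Nr4a1 -0.66, Afg3l1 -0.57, Ccr7 -0.55, Cdt1 -0.33 and Mcm7 -0.29. The interaction in Th17n minus that in Th17p passed for Afg3l1 -1.15, Entpd1 -1.47, Hist1h2ai 2.6, Mex3a 1.0, Ndufb6 0.41, Ptprc 0.55, Rgs1 0.72, Spcs3 0.53 and Zbtb7c -1.09. In the genes named, 19 of 299 groups of 4 or 5 libraries (6.35%) held a library far from the others, where chance gives about 1 in 20. Among EGCG Div.1 libraries these were Fpgt at 2.47 TPM in replicate 4, Apoo-ps at 9.8 TPM in replicate 5, Il17a at 445 TPM in replicate 1 and Slc16a1 at 24.6 TPM in replicate 1. Among DMSO Div.1 libraries they were Sec63 at 0.00498 TPM in replicate 2, Il2 at 292 TPM in replicate 3, Anxa2 at 76 TPM in replicate 3, Elovl5 at 62.4 TPM in replicate 4, Pim2 at 61.7 TPM in replicate 3 and Ptprc at 109 TPM in replicate 1. In EGCG Total they were Il9 at 1626 TPM in replicate 4, Insig1 at 101 TPM in replicate 4, Ptprc at 142 TPM in replicate 3 and Zbtb7c at 0.0363 TPM in replicate 5. In DMSO Total they were Fpgt at 1.09 TPM in replicate 5, Apoo-ps at 4.72 TPM in replicate 1, Perp at 15.9 TPM in replicate 1, Spcs3 at 122 TPM in replicate 4 and Zbtb7c at 0.0318 TPM in replicate 3.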

How the results depend on the processing

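The interaction in Th17n gave 1029 to 2031 called genes over 9 alternatives and 958 to 1536 on leaving out each of 19 libraries, within 1.5 times the 1420 of the main setting; EGCG against DMSO gave 3178 to 3577 in Div.1 and 3296 to 3616 in Total on leaving out a library. The sort difference with EGCG (19) was the least stable count: 137 after rescaling, 0 in a fit on those groups alone, 8 with the library of well A4, 325 without well columns 1 and 10, and 5 to 358 on leaving out a library. With DMSO (1696) it was 1129 to 1712 on leaving out a library. Th17n minus Th17p (9) gave 25 after rescaling, 21 in the fit on those groups alone, 4 with well A4, 1 without columns 1 and 10, and 3 to 14 on leaving out a library. The Th17p interaction (274) gave 479 alone, 160 with well A4 and 467 without those columns, and 190 to 318 on leaving out a library. The methanol sort difference (319) gave 11 alone, 102 with well A4 and 515 without those columns, and 35 to 763 on leaving out a library. DMSO minus methanol (0) gave 1 with a pseudocount of 0.1 and 0 on leaving out any library. The cause of these shifts was not tested.

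The well column, taken as a replicate block, gave 2031 genes for the interaction in all groups and 1376 on the 4 groups alone, 545 and 65 for the sort difference with EGCG, 105 and 140 for Th17n minus Th17p, 669 and 996 for Th17p, 793 for methanol over all groups and 1 for DMSO minus methanol on the groups alone. The 27 same-numbered pairs had correlations of 0.02 to 0.27, and 18 of 19 libraries correlated best with their own number, a hint from the data and not the design.

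Of 103 genes followed 86 were called; 51 of these stayed called on leaving out every library in turn, 34 in every other alternative and 32 in all. Of 2884 values in the alternatives 2 turned sign, both with the library of well A4 put back: Foxp3 at 0.43 and Ctsw at 0.53. With TPM alone, read depth cannot be separated from replicate spread.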
